A study of Homo sapiens with 20 samples.

Results

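RUNX1 occupancy at the ends of cytosolic ribosomal protein genes was examined in THP-1 cells, a human cell line established from an acute monocytic leukemia. Genes were chosen by name from the RefSeq table of assembly GRCh38.p14, as protein-coding genes whose symbol begins with RPL or RPS and a digit, or is RPLP0, RPLP1, RPLP2 or RPSA, leaving out the RPS6K kinases. The rule gave 91 genes, of which 79 encode the ribosomal proteins themselves and 12 are paralogs, read-through genes or, for RPS19BP1, a binding protein. RUNX1 peaks within 1 kb of either end of these genes numbered 76, of 26642 peaks in the table and of 6494 peaks within 1 kb of an end of any protein-coding gene. The remaining 6418 are called other gene-end peaks below.

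Both groups carried a doxycycline-inducible shRNA cassette and received doxycycline. The cassette targeted the transcription factor PU.1 in the knockdown group and was a scramble sequence in the control group. RUNX1 ChIP-seq was done on 6 control and 6 knockdown libraries in 2 experimental rounds (batches), with 3 control and 2 knockdown libraries in batch 1 and 3 control and 4 knockdown libraries in batch 2. The study describes its replicates as cell line replicates, each with an immunoprecipitation and library of its own, so the p-values measure the spread between such libraries. PU.1 itself is not measured by this assay, and 8 IgG libraries were not analysed here.

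The cytosolic ribosome joins a large and a small subunit, each a scaffold of ribosomal RNA clothed in ribosomal proteins. Ribosomal protein genes are among the most active housekeeping genes, and their mRNAs typically begin with a run of pyrimidines, the terminal oligopyrimidine motif through which mTOR signalling controls their translation. RUNX1 is a DNA-binding factor of the blood lineage that recognises TGTGGT and TGCGGT, and PU.1 is an ETS family factor that recognises purine-rich sites around GGAA.

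Between 630247 and 1199004 reads of the control libraries and between 938745 and 1719840 reads of the knockdown libraries fell into peaks, of which 2901 to 5888 and 3738 to 7333 fell into the ribosomal protein peaks. Control replicate 1 stood apart, with 37.4% of its in-peak reads in gene-end peaks against 31.3% to 32.3% in the other controls. The knockdown libraries held 27.4% to 31.7% there. Results are therefore also given without control replicate 1, and relative to other gene-end peaks.

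Of the 91 genes, 66 (72.5%) had at least 1 RUNX1 peak within 1 kb of an end, against 7287 of 20033 protein-coding genes (36.4%). The share was 73.9% of 46 large subunit genes and 78.8% of 33 small subunit genes. No peak was found within 1 kb of an end of 25 genes, including RPL10, RPL13, RPL24, RPL26, RPL32, RPLP1, RPS13 and RPS4X. Windows of 500 bp and 5 kb gave 65 and 76 genes with a peak. Strand was known for 72 of the genes, and 51 of them (70.8%) had a peak at the gene start, against 34.7% of all genes with known strand. At the far end, 15 (20.8%) had a peak, against 6.30% of all. Both ends of a short gene lie close together. Among genes under 5 kb the far end carried a peak in 29.0% of 31 ribosomal protein genes and in 10.8% of 2338 genes in all, and the start in 74.2% and 23.4%.

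**Figure D1:**
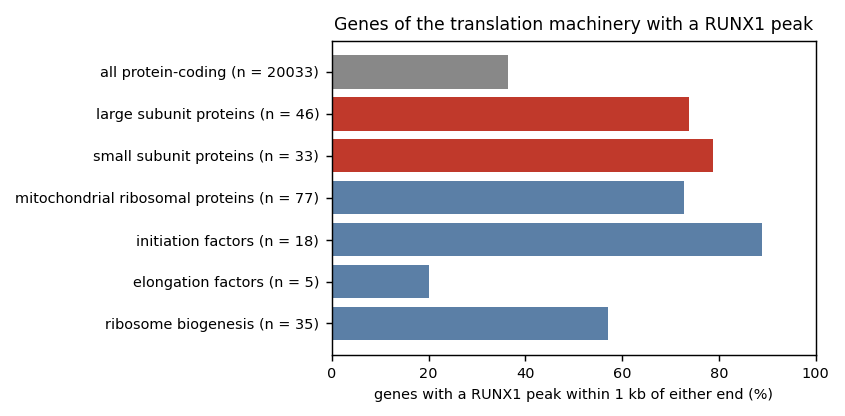
Share of genes (x axis, %) with a RUNX1 peak within 1 kb of either end, for all protein-coding genes (grey), cytosolic ribosomal proteins by subunit (red) and other lists of the translation machinery (blue), with the number of genes in each. Both subunits lie above the 36.4% of all protein-coding genes.

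Most of the peaks sat on the promoter. Of the 76 peaks, 67 covered the annotated end base of their gene, 51 lay at a gene start and 10 at a far end only. For the other 15 the strand of the gene was not in the sequences used here. Peaks were 609 to 3360 bp wide, with a median of 1424 bp (1291 bp for other gene-end peaks). The mean normalised count (reads divided by the DESeq2 size factor of the library) had a median of 65.8 over the 76 peaks and 43.2 over other gene-end peaks. Per kb of peak width the medians were 41.2 and 32.7. A protein-coding gene outside the family also had an end within 1 kb of 27 peaks, so that those peaks cannot be assigned to the ribosomal protein gene alone.

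Promoter sequences (RefSeq, GRCh38.p14) are shown for the called genes with the smallest adjusted p that the sequence table held, because RUNX1 signal over them was lower in the knockdown. Each runs 5′ to 3′ and ends at the last base before the gene start, and each lay wholly within its peak. The sequences of RPS28 and RPL37A are shorter because another annotated gene begins upstream. Capitals mark the RUNX words named above, the ETS core GGAAGT and the TATA word TATAAA, each on either strand.
RPS3, chr11:75399268-75399517, plus strand: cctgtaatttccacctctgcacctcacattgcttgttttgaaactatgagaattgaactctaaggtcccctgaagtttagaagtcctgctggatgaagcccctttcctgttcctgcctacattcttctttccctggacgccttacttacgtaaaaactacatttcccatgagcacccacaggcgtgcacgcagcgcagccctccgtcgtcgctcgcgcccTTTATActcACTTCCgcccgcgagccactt
RPS6, chr9:19380237-19380486, minus strand: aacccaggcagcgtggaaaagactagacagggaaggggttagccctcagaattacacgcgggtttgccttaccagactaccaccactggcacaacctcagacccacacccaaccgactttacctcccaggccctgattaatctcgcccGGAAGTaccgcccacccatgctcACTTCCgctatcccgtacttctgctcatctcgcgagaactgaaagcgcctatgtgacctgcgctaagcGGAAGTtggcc
RPL4, chr15:66504856-66505105, minus strand: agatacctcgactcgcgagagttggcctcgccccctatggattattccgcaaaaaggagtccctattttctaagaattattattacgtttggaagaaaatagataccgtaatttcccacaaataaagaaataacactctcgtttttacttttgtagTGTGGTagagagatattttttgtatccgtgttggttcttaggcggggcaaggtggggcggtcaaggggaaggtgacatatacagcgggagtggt
RPS28, chr19:8321376-8321495, plus strand: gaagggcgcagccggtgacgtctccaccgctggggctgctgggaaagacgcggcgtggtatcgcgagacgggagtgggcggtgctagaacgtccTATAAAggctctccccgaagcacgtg
RPL37A, chr2:216498753-216498843, plus strand: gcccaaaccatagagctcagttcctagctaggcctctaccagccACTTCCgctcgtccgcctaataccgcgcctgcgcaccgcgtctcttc
RPS23, chr5:82278355-82278604, minus strand: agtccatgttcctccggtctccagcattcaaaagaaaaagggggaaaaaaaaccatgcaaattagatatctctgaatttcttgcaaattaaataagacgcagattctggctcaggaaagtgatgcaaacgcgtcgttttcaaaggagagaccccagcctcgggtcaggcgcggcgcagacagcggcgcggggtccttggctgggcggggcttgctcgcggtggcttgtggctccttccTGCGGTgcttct
The RPS3 sequence held GGAAGT on the opposite strand, its first base 21 bases before the start, and TATAAA on the opposite strand at 30 bases. RPS6 held GGAAGT 3 times, at 102, 79 and 11 bases before the start. RPL37A held it at 47 bases, on the opposite strand. RPL4 held the RUNX word TGTGGT at 94 bases and RPS23 held TGCGGT at 12 bases. RPS28 held neither a RUNX word nor GGAAGT here, and had TATAAA at 26 bases.

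The sequence table held promoters, from 250 bases before to 50 after the start, for 72 of the 91 genes and for 15841 protein-coding genes, or 70 and 15744 distinct promoters where genes that share a start are counted once. A RUNX word, TGTGGT or TGCGGT on either strand, was in 20 of the 70 (28.6%) and in 18.6% of all. Among promoters with a RUNX1 peak at the start it was in 16 of 50 (32.0%) of the ribosomal protein promoters and in 1240 of 5402 others. The ETS core GGAAGT was in 25 of the 50 and in 32.1% of the others. The longer CCGGAAGT and GAGGAAGT, both of which contain GGAAGT, were in 10 and 3 of the 50 ribosomal protein promoters with a peak and in 11.3% and 2.59% of the others. TATAAA was in 4 of the 50 and in 5.07%. GAGGAAGT, the form closest to the PU.1 site, was in none of the 14 promoters with a lost start peak and in 3 of 36 promoters whose start peak was not called. In these 14 and 36 promoters, GGAAGT was in 9 (64.3%) and 16 (44.4%), and a RUNX word in 4 (28.6%) and 12 (33.3%). CCGGAAGT was in 5 (35.7%) and 5 (13.9%). GAGGAAGT is too rare for its absence from 14 promoters to be read as a difference, and no word was tested between these groups.

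Most of these promoters carried the pyrimidine run. An uninterrupted run of at least 5 C or T bases from the annotated start was found in 44 of 70 ribosomal protein promoters (62.9%), against 4.9% of all promoters. It was in 9 of the 14 promoters with a lost start peak (64.3%) and in 24 of the 36 not called (66.7%). The run was searched after earlier results were seen.

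To determine how PU.1 knockdown changed RUNX1 at these genes, knockdown was compared with control by DESeq2 on all 26642 peaks with batch as a covariate. A peak was called lost or gained where the fold change exceeded 1.1 and the p-value, adjusted by Benjamini-Hochberg over all peaks, was under 0.05. Of the 76 peaks, 20 (26.3%) at 18 genes were lost and 0 gained. Among other gene-end peaks 18.9% were lost and 6.26% gained, and among all peaks 20.7% were lost and 21.3% gained. No ribosomal protein peak was higher at an unadjusted p under 0.05 either, against 477 of 6418 other gene-end peaks. With edgeR 21 (27.6%) were lost and 0 gained, against 22.8% and 7.4% of other gene-end peaks.

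The losses were modest. The median log2 fold change was -0.20 over the 76 peaks, -0.17 over other gene-end peaks and -0.02 over all peaks, and 64 of the 76 values (84.2%) were negative, against 72.2% of other gene-end peaks. A loss over 1.5-fold was called at 4 ribosomal protein peaks (5.26%) against 8.38% of other gene-end peaks. A loss over 2-fold was called at 1, RPS3, and at 113 other gene-end peaks. The highest fitted log2 fold change was 0.32, while those of other gene-end peaks reached 2.77. An extreme grows with the number of peaks, and the 95th percentiles were 0.18 and 0.56. Depth bears on these counts. Among peaks whose mean normalised count reached 50, 16 of 47 ribosomal protein peaks (34.0%) and 21.6% of other gene-end peaks were lost. The gained were 0 and 5.14%. Among peaks under 50 the order was the other way, with 4 of 29 ribosomal protein peaks (13.8%) and 17.0% of others lost. The gained there were 0 and 7.04%. This cut at 50 was not planned. Without control replicate 1, 16 of the 76 peaks and 14.1% of other gene-end peaks were lost, with medians of -0.17 and -0.13.

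**Figure D2:**
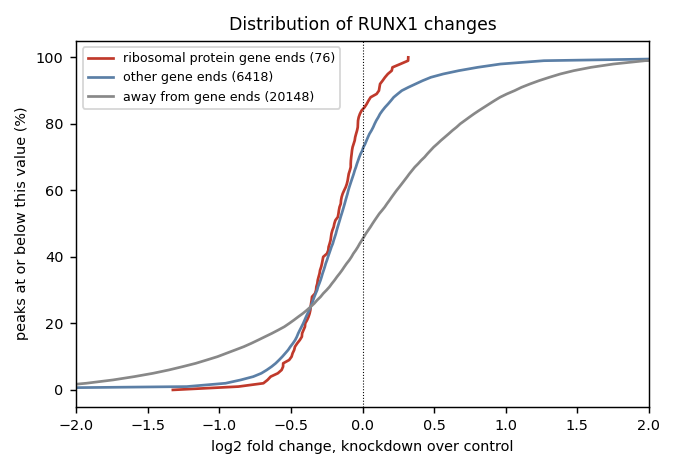
Cumulative share of peaks (y axis, %) by log2 fold change, knockdown over control (x axis), for ribosomal protein gene ends (red), other gene ends (blue) and peaks away from gene ends (grey). The red curve stands above the blue one near zero, where 84.2% and 72.2% of values are negative. Their 95th percentiles are 0.18 and 0.56. The red curve, of far fewer peaks, ends at 0.32 while the others go on to higher values.

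The calls depended on some choices of scaling. With TMM size factors, 18 peaks (23.7%) were lost and 0 gained, against 18.0% and 6.5% of other gene-end peaks. Total in-peak counts as size factors also gave 18 lost and 0 gained, against 17.2% and 6.58%. The medians over the 76 peaks were -0.19 and -0.18. With size factors taken from gene-end peaks only, which raised the median of all peaks by 0.15 on the log2 scale, 9 ribosomal protein peaks (11.8%) were lost, against 8.97% of other gene-end peaks, and 3 gained (RPS3A, RPL34 and the RPL35A far end). Of the called other gene-end peaks, 24.9% were gained in the main fit and 52.2% with this scaling. With each value centred on the median of its 10 Mb window, 13 (17.1%) were lost, against 15.5% of other gene-end peaks, and 2 gained (RPS3A and the 1079 bp RPL37 peak), and 11 of the 20 lost peaks kept their call.

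Reads summed over the 76 peaks bear on the same question without a size factor. They made up 1.36, 1.49 and 1.56 (lowest, median and highest library) per 100 reads in other gene-end peaks in the controls and 1.39, 1.42 and 1.47 in the knockdown. The groups overlapped only through control replicate 1, at 1.362. The other controls ran from 1.475 to 1.557, narrowly above the highest knockdown library at 1.473. In batch 2 the controls lay at 1.49 to 1.498 and the knockdown at 1.393 to 1.473. The ratio of the group means, averaged over the batches, was 0.958, with 0.952 in batch 1 and 0.963 in batch 2. Without control replicate 1 the ratio was 0.941. It was 0.979 over the peaks with no other gene nearby. Over those peaks the groups overlapped without control replicate 1 too, the lowest other control at 0.891 and the highest knockdown library at 0.92.

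**Figure D3:**
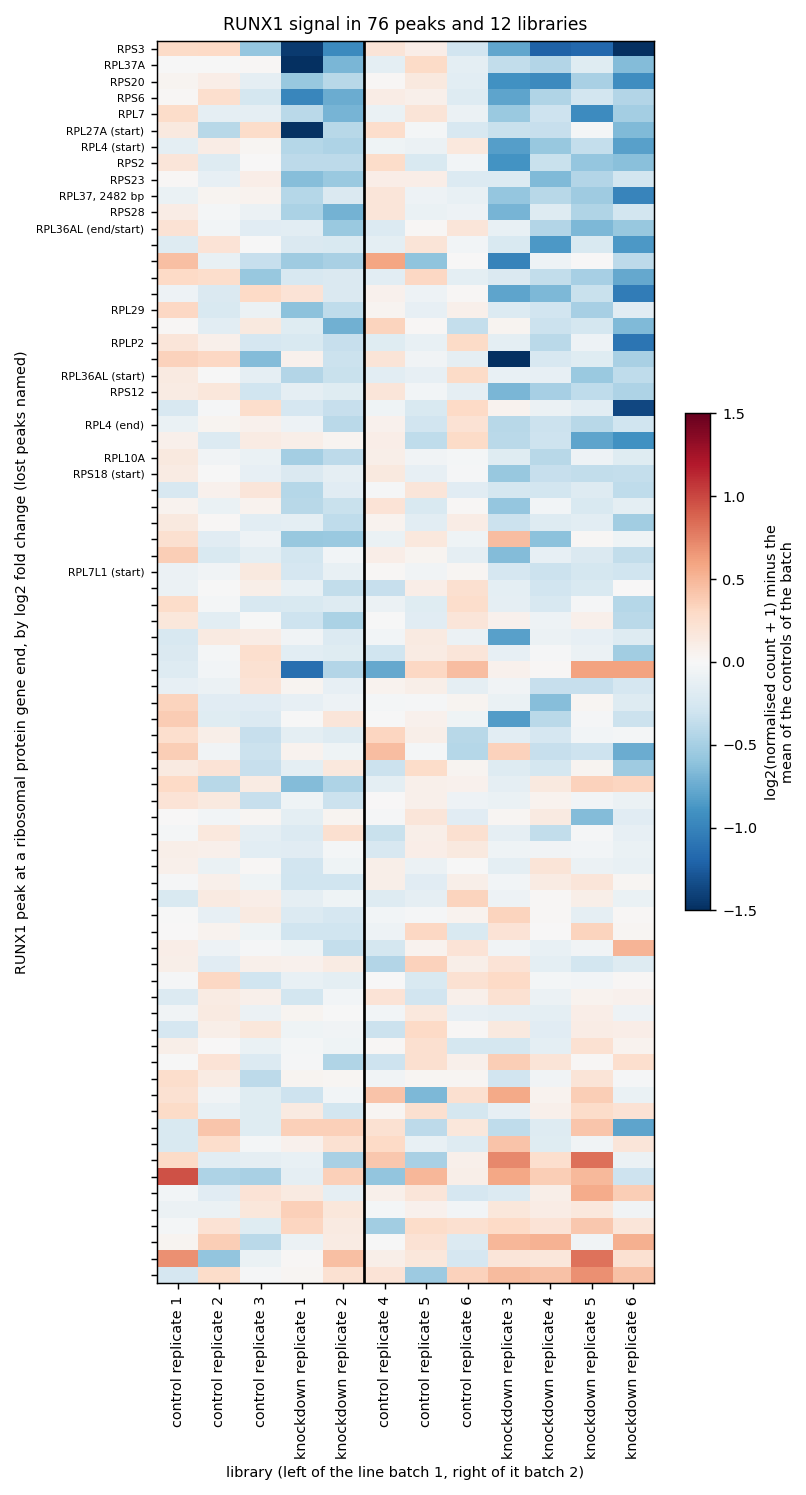
RUNX1 signal in each of the 76 peaks (rows, ordered by log2 fold change, lost peaks named) and 12 libraries (columns, the line parts batch 1 from batch 2), as log2(normalised count + 1) minus the mean of the controls of the same batch. Blue knockdown columns stand beside pale control columns in the upper rows, and the lowest rows show mixed colours.

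RPS3, a small subunit protein at the mRNA entry channel, had the largest loss. Its promoter peak (chr11:75399131-75400123) had normalised counts of 17.3, 30.3 and 32.6 (lowest, median, highest) in the controls and 4.66, 11.4 and 15.4 in the knockdown. Every knockdown library lay below every control. The log2 fold change was -1.33 ± 0.27 (SE, n = 6 and 6; DESeq2 adjusted p = 1.05e-05), with -1.27 in batch 1 and -1.36 in batch 2. The peak was shallow, with 5 to 35 raw reads per library. It lay in a 10 Mb window with a median of -0.31. Centred on that window, its log2 fold change was -1.01, and it was still called.

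Among the other small subunit genes, RPS20 encodes a protein of the subunit head. Its peak (chr8:56073221-56075046) had 106, 120 and 131 in the controls and 60.8, 70.7 and 86.9 in the knockdown, with no overlap, a log2 fold change of -0.67 ± 0.13 and a DESeq2 adjusted p of 1.28e-06. RPS6, the target of S6 kinase, had 60.0, 73.6 and 97.7 against 39.2, 49.5 and 56.7 (chr9:19379233-19380880; -0.64 ± 0.15, DESeq2 adjusted p = 0.00017). Its groups did not overlap either. RPS23, a protein of the decoding centre, had 55.8, 69.3 and 77.2 against 40.3, 47.9 and 55.8 (chr5:82277618-82279186; -0.49 ± 0.15, DESeq2 adjusted p = 0.00353), the highest knockdown value falling just under the lowest control. RPS2 and RPS28 fell by 0.50 ± 0.14 and 0.47 ± 0.13 on the log2 scale (DESeq2 adjusted p = 0.00127 and 0.00195), without overlap, in peaks that also cover or adjoin NDUFB10 and NDUFA7 with KANK3. RPS18 and RPS12 had smaller changes of -0.30 ± 0.11 and -0.35 ± 0.14 (DESeq2 adjusted p = 0.0174 and 0.0322), and RPS12 overlapped between groups. The RPS18 start peak was shared with VPS52.

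Among large subunit genes, RPL4, whose protein lines the exit tunnel, had 70.3, 80.6 and 94.0 in the controls and 41.6, 54.1 and 63.9 in the knockdown at its start (chr15:66504191-66505687), a peak shared with ZWILCH. The groups did not overlap, and the log2 fold change was -0.55 ± 0.14 (DESeq2 adjusted p = 0.000401). A second RPL4 peak at the far end, shared with SNAPC5, was also lost (-0.32 ± 0.13, DESeq2 adjusted p = 0.0376), with overlapping groups. RPL37A, a zinc-binding protein of the large subunit, had 29.5, 45.9 and 53.0 against 16.4, 24.4 and 32.3 (chr2:216498272-216499253; -0.71 ± 0.20, DESeq2 adjusted p = 0.00195). Pooled over batches its groups overlapped, but within each batch they did not, the batch 1 controls lying at 52.0 to 53.0 and the batch 2 controls at 29.5 to 39.9. RPL7 had 86.7, 109 and 148 against 47.8, 69.9 and 92.2 (chr8:73293032-73296119, shared with RDH10; -0.58 ± 0.14, DESeq2 adjusted p = 0.000133), overlapping when batches were pooled and not within them.

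**Figure D4:**
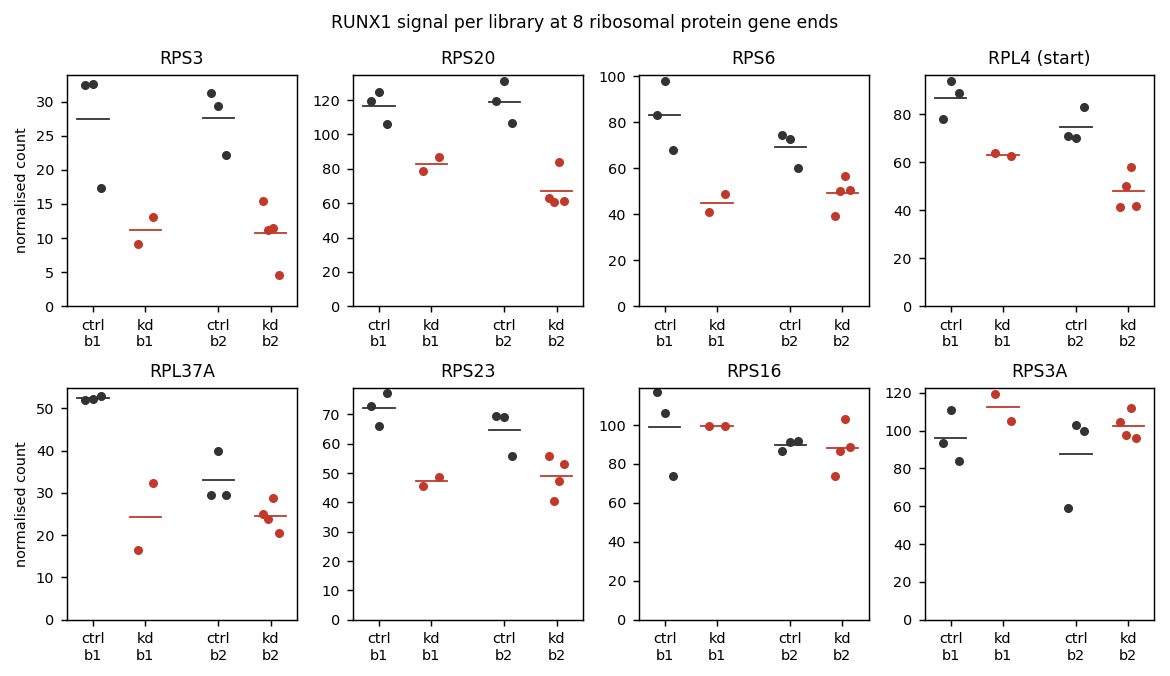
Normalised count (y axis, from 0) of each library at 8 peaks, with control (ctrl, black) and knockdown (kd, red) in batch 1 (b1) and batch 2 (b2) and a line at each mean. In the 6 lost peaks the knockdown points lie below the control points of their batch, whereas at RPS16 and RPS3A they do not.

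RPS20 and RPL7 lie on chromosome 8, where gene-end peaks were lower as a whole: 44.8% of 232 other gene-end peaks there were lost, with a median log2 fold change of -0.36. Centred on their 10 Mb windows, the log2 fold changes of RPS20 and RPL7 were -0.34 and -0.37, both still called. Without chromosome 8, 18 of 73 ribosomal protein peaks (24.7%) and 17.9% of other gene-end peaks were lost. RPL27A and RPLP2 also lay in windows with medians of -0.34 and -0.27, and neither was called after centring. The part of the chromosome region in these calls was not tested further.

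RPL37, another large subunit gene, had 2 peaks 119 bases apart. The 2482 bp peak (chr5:40833286-40835767) had 110, 120 and 140 in the controls and 61.5, 86.2 and 102 in the knockdown, without overlap (-0.48 ± 0.12, DESeq2 adjusted p = 0.000444). The 1079 bp peak beside it had 31.1, 41.4 and 54.0 against 38.9, 51.2 and 58.7, with overlapping groups and 0.21 ± 0.18 (DESeq2 adjusted p = 0.364). Centred on their window, in which the median was -0.26, these became -0.21 (adjusted p = 0.154) and 0.47 (adjusted p = 0.0251). The difference between the adjoining peaks was not tested.

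The remaining 7 lost peaks were RPL10A, of the L1 stalk, RPL29, both peaks of RPL36AL, a paralog of RPL36A, the starts of RPL27A and RPL7L1, and RPLP2, of the acidic stalk that recruits translation factors. Their log2 fold changes ran from -0.24 ± 0.10 at RPL7L1 to -0.56 ± 0.23 at RPL27A, and their DESeq2 adjusted p from 0.00564 at RPL10A to 0.0469 at RPLP2. RPL10A had the highest level of them, with 163, 179 and 212 in the controls and 127, 147 and 160 in the knockdown, without overlap, in a peak shared with FANCE. The RPL27A start, RPLP2 and RPL36AL start peaks were shared with TRIM66, PIDD1 and MGAT2. Leaving out 1 library ended the call of 9 peaks (these 7 except RPL10A, with the RPL4 far end, RPS18 and RPS12), and each of the 12 libraries ended at least 1 of them, control replicate 6 most often with 8. By subunit, 9 of 40 large subunit peaks and 8 of 28 small subunit peaks were lost, and 3 of 8 peaks of genes that are not ribosomal proteins themselves. By position, 15 of 51 peaks at gene starts and 1 of 10 at far ends were lost. Near a gene outside the family 10 of 27 peaks (37.0%) were lost, and away from any such gene 10 of 49 (20.4%). No difference between these groups was tested.

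The batches were also fitted apart. In batch 1, 2 ribosomal protein peaks were lost (RPS6 and RPL37A), beside 1.87% of other gene-end peaks and 6.61% of all peaks. In batch 2, 7 were lost (RPS20, RPS3, RPL7, RPL4 start, the 2482 bp RPL37 peak, RPS2 and RPS18 start), beside 8.94% and 13.1%. None of the 9 was called in both batches. All 20 lost peaks had negative log2 fold changes in both batches, but they were called on both batches together, which favours a shared sign. Over all 76 peaks, 47 were negative in both batches, as were 3608 of 6418 other gene-end peaks. The median over the 76 peaks was -0.19 in batch 1 and -0.22 in batch 2. A test of the genotype by batch term called 0 of the 76, with 2 at an unadjusted p under 0.05: the RPL35A start (-0.74 in batch 1 and 0.22 in batch 2) and the RPL7L1 far end (-0.56 and 0.18).

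**Figure D5:**
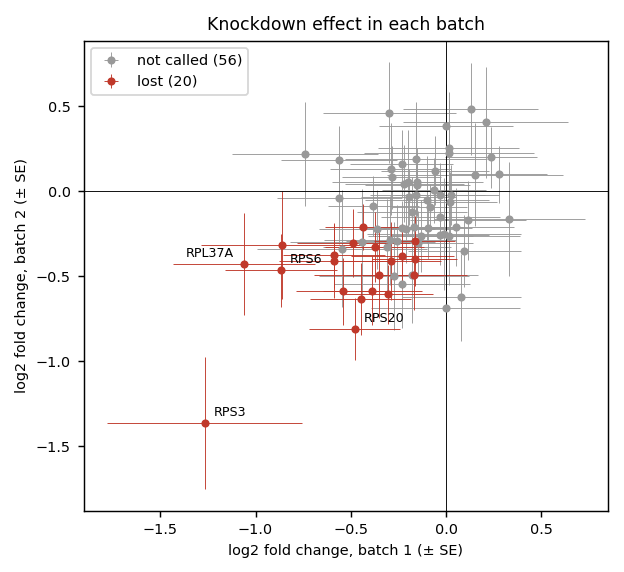
Log2 fold change, knockdown over control, in batch 1 (x axis) and batch 2 (y axis) for the 76 peaks, with standard errors as bars. All 20 lost peaks (red), which were called on both batches together, lie below zero in both, RPS3 farthest out. The 56 others (grey) gather around and below zero.

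On the libraries themselves, every knockdown library lay below every control of its own batch, in both batches, at 15 of the 76 peaks and above at 0. The same held for 9.19% of other gene-end peaks below and 4.13% above, and for 13.9% and 14.4% of all peaks. Of the 15, 14 were lost peaks, and the other was RPL21 (-0.42 ± 0.18, DESeq2 adjusted p = 0.0509).

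Several peaks with dense RUNX1 signal were not called. Per kb of peak width, mean normalised counts were among the highest at the RPS9 far end (88.7), RPS16 (82.7), RPL18 (67.1) and RPS3A (67.1). They had log2 fold changes of -0.09 ± 0.09, -0.01 ± 0.13, -0.03 ± 0.12 and 0.20 ± 0.13. RPS16 had 73.7, 91.5 and 117 normalised counts in the controls and 73.6, 94.0 and 103 in the knockdown. RPS3A had 59.0, 96.8 and 111 against 96.0, 105 and 120, and its call depended on scaling as given above. The largest positive values, RPL34 and the muscle paralog RPL3L, were 0.32 ± 0.19 and 0.32 ± 0.23 (DESeq2 adjusted p = 0.16 and 0.278).

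Mutations in several ribosomal protein genes cause Diamond-Blackfan anaemia, a failure of red cell production. The genes of this list with a peak were RPS19, RPL5, RPL11, RPS26, RPS24, RPS7, RPL35A, RPL15, RPS29 and RPS28. Of their 12 peaks 1 (8.33%), at RPS28, was lost, against 18.9% of other gene-end peaks, a count too small to set the list apart. RPS19, the gene first linked to it, had a start peak at -0.10 ± 0.16 and a far-end peak at 0.11 ± 0.22. RPL5 and RPL11, which join the 5S RNA and bind MDM2, had -0.28 ± 0.14 (DESeq2 adjusted p = 0.092) and -0.02 ± 0.14. RPS14, the gene lost in the 5q minus syndrome, had 51.6, 73.7 and 86.7 normalised counts in the controls and 58.1, 61.9 and 68.0 in the knockdown (-0.15 ± 0.15). RPSA and RPLP0, of the small subunit and the stalk base, had -0.27 ± 0.18 and -0.42 ± 0.24 (DESeq2 adjusted p = 0.232 and 0.151), with overlapping groups.

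Other genes of translation were read out from fixed lists, beside the 18.9% lost and 6.26% gained among other gene-end peaks. Mitochondrial ribosomal protein genes, whose products serve the separate ribosome of mitochondria, had a peak at 56 of 77 genes (72.7%), and of 61 peaks 18 (29.5%) were lost, led by MRPL21 (-0.88 ± 0.21), and 2 gained, MRPL17 and MRPS26, with a median of -0.25. Initiation factors had peaks at 16 of 18 genes, 4 of 17 peaks (23.5%) lost (EIF3F, EIF4G2, EIF3M and EIF3E) and 1 gained (EIF3C). EIF3E, and MRPL15 and MRPL13 of the lost mitochondrial ribosomal protein peaks, lie on chromosome 8, where gene-end peaks were lower as a whole. EIF3F and EIF4G2 lie in the 10 Mb window of the RPL27A start, with its median of -0.34. Centred on such windows, 23.5% of the initiation factor and 21.3% of the mitochondrial ribosomal protein peaks were lost, against 15.5% of other gene-end peaks. Ribosome biogenesis genes had peaks at 20 of 35, 7 of 20 (35.0%) lost, led by the RNA polymerase subunit POLR1C (-0.80 ± 0.17), and 1 gained, PES1. Of 5 elongation factors 1 had a peak, which was not called. Of other terminal oligopyrimidine mRNAs 3 of 6 had one, with TPT1 gained (0.40 ± 0.17), and FAU, a ribosomal protein fused to a ubiquitin-like protein, had one, lost at -0.57 ± 0.20 and shared with MRPL49. No list was tested against another.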

How the data were processed

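RUNX1 ChIP-seq of THP-1 cells was analysed from the deposited table, which lists raw read counts for each peak in each library, with peak width in bp as other information. Per the methods and the processing notes, the authors aligned with Bowtie2, removed duplicates, used MACS2 for peaks of each condition and batch, kept those reproducible between batches, merged conditions and counted with featureCounts. The treatment of reads that align to several places is not given in the sources used here, and ribosomal protein genes have many near-identical pseudogenes. Peaks were called on the libraries compared. The methods name GRCm38 and the notes also GRCh38. Coordinates were taken as GRCh38, in which 24.4% of peaks lay within 1 kb of a gene end. No other build was compared, so this share alone does not settle the build.

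DESeq2 1.42.0 in R 4.3.3 was fitted to all 26642 peaks (batch and genotype, median-of-ratios size factors, no filter on counts). Alternatives were edgeR 4.0.16, other size factors, covariates, filters, windows and members, and leaving out each library. Code was tested on simulated data. Between libraries of a group the chi-square was 1.29 to 2.24 times its degrees of freedom, so none was a duplicate. Same-numbered libraries were not paired by the labels. The members, lists and alternatives were chosen with earlier results of these data known. Named peaks were the called ones (15 by adjusted p per direction, and the other 5 lost peaks, added after their values were seen), the 5 highest per kb, RPS19, RPL5, RPL11, RPS14, RPSA and RPLP0, and the highest uncalled log2 fold changes. Some genes that this rule picks are not reported here. The peaks plotted per library, RPL21 and the called genes of the other lists were named after their values were seen. Read counts limit precision, most at peaks with few reads.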

Additional observations from a re-analysis of the deposited data

Results flagged for a closer look

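Dixon's test at the 95% level was applied to 78 groups of 6 libraries and picked out 3, where chance would give 3.9. At the RPL3L peak, control replicate 1 had a normalised count of 44.2, against 17.7 to 25.8 in the other controls. At the RPL7L1 start peak, control replicate 3 had 167, against 138 to 146, and without that library the peak was no longer called. In the gene-end share of in-peak reads, control replicate 1 had 37.4%, against 31.3% to 32.3%.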

How the results depend on the processing

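Of the 76 peaks, 20 were lost and 0 gained in the fit reported, with a median log2 fold change of -0.20. Size factors from gene-end peaks gave 9 lost (11.8%, others 8.97%), 3 gained and a median of -0.054. A minimum of 10 counts in every library left 73 peaks with 10 lost (13.7%, other gene-end peaks 12.1%) and a median of -0.13. Centring on 10 Mb windows gave 13 lost (17.1%, others 15.5%) and 2 gained (others 6.4%). A 5 kb window gave 4 gained of 103 peaks, against 12.2% of other peaks within 5 kb of a gene end. Leaving out ribosomal protein peaks near another gene gave 10 lost of 49 (20.4%). The 18.9% of other gene-end peaks is not a like share, since those near several genes were kept. A fold change over 1.5 left 4 lost (5.26%, others 8.38%) and an adjusted p under 0.01 left 11 (14.5%, others 10.3%). Leaving out each library in turn gave 12 to 19 lost, fewest without control replicate 6 (15.8%, others 14.9%), 0 gained and medians of -0.22 to -0.17, and 11 of the 20 kept their call each time. Within batches, edgeR called 10 in batch 1 and 15 in batch 2, and leaving out a library gave 0 in batch 1 whichever library was left out, and 4 to 6 in batch 2, with 4 without control replicate 6, knockdown replicate 5 or knockdown replicate 6. Where 1 knockdown library remained in batch 1, it was assumed to vary like the controls. No share of other gene-end peaks is given beside these counts within batches, so they describe the ribosomal protein peaks only. The cause of these shifts was not tested beyond the fewer libraries or peaks. The read ratio ran from 0.941 to 0.973 over the left-out libraries, and was 0.979 without peaks near another gene. With the replicate number as a block beside batch, 7 were lost (9.21%, others 8.73%) and 0 gained. Correlations between same-numbered libraries were -0.10 to 0.01. Differently numbered libraries were not correlated for reference, so these values cannot decide whether the numbers pair libraries. Replicate 3 of control and of knockdown lay in different batches. Of the alternatives for 36 named peaks, 601 of 719 values kept their call and size, 104 lost the call, 6 gained it, 8 moved and 0 called values changed sign. In the fits over both batches, 6 lost peaks were called wherever they were tested: RPS20, RPS3, RPL7, RPS6, RPL4 start and RPL37A. RPS3 did not pass the 10-count filter.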
